A study of Mus musculus with 8 samples.

Results

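The Toll-like receptors of the mouse were followed over 8 Affymetrix expression arrays of spleen and lymph node, taken from Aire wild-type mice and Aire knockout mice. The 10 receptors are the genes Tlr1, Tlr2, Tlr3, Tlr4, Tlr5, Tlr6, Tlr7, Tlr8, Tlr9 and Tlr13, and their members on the array are all probe sets annotated with exactly 1 of these symbols. There were 16 such probe sets among 45037, of which 8 belonged to the 5 receptors of the cell surface and 8 to the 5 receptors of the endosome. The 4 groups, 2 tissues by 2 genotypes, had 2 arrays apiece, lettered A and B. The labels call the groups spleen Aire wild-type, spleen Aire knockout, lymph node Aire wild-type and lymph node Aire knockout. They give no strain, age, sex, cell type or sorting step for any group, do not say whether animals were pooled, and do not explain the letters. No label says that arrays of a group came from separate animals. Sex-linked signals given below differed between arrays A and B of every group, so these did not hold the same mix of animals. The wild-type arrays B and the knockout arrays A carried both female and male signals, so they held RNA of more than 1 animal. For the other arrays, whether 1 animal or a pool was used is not stated. The number of animals is unknown, so p-values below reflect the spread of these samples alone.

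Toll-like receptors are membrane proteins of innate immune cells that recognise conserved molecules of microbes. Those of the cell surface bind lipoproteins, lipopolysaccharide and flagellin, whereas those of the endosome bind nucleic acids after uptake and need the chaperone Unc93b1 to get there. Most signal through the adaptor Myd88 to NF-kB and interferon regulatory factors, which switch on cytokines, chemokines and costimulatory molecules in dendritic cells and macrophages of spleen and lymph node. Aire is a transcriptional regulator that lets cells of the thymic medulla, and rare cells of peripheral lymphoid organs, express antigens of other tissues. The title of the series places the comparison in peripheral deletional tolerance by such extrathymic cells.

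Values are given as scaled signals, which are the authors' array intensities after each array was shifted to a common median. In every list of 8 values the order is spleen wild-type A and B, spleen knockout A and B, lymph node wild-type A and B, and lymph node knockout A and B. A probe set was tested if it lay above the median of all signals, 59.0, on at least 2 arrays, which held for 26479 probe sets. For the tests, signals under 9.58, the 20th percentile of all signals, were raised to that floor. Differences are on the log2 scale with their standard error (SE) from limma, and adjusted p-values are Benjamini-Hochberg values over all 26479. Of the 16 receptor probe sets, 9 were tested, covering 7 of the 10 receptors, and 7 were under the filter. Tlr3, Tlr5 and Tlr8 had no tested probe set.

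The 8 arrays held different mixtures. Aire, the targeted gene, measured 5037, 5204, 1009, 2376, 3052, 3535, 791 and 1137, so every knockout array lay below every wild-type array of its tissue, and the averaged log2 difference was -1.76 ± 0.33 (SE, limma adjusted p = 0.319). Whether this probe set lies in the deleted part of Aire was not analysed here. Xist, expressed from the inactive X chromosome of females, measured 14.6 and 23.1 on the knockout arrays B of spleen and lymph node and from 3565 to 7624 on the other 6. The Y-linked Eif2s3y measured 21.2 and 3.80 on the wild-type arrays A and from 521 to 1988 on the other 6. The wild-type arrays B and the knockout arrays A were thus high in both, so RNA of females and males was mixed on them. The mix of female and male transcripts differed between arrays A and B in every group. It also differed between genotypes in both tissues, since the arrays low in Eif2s3y were wild-type and those low in Xist were knockout. Genotype and sex can therefore not be fully told apart in the differences below. Tlr7, Tlr8 and Tlr13 are X-linked. No receptor was called with or without Y-linked signal as a covariate in the fit, so the calls cannot show what part sex had. With this covariate the averaged knockout minus wild-type differences of the tested X-linked probe sets moved. They went from 0.91 to 1.30 and from 1.20 to 1.78 for Tlr7, and from -0.087 to -0.30 for Tlr13. The B cell genes Cd79b and Ms4a1 ranged from 40.7 to 557 and from 19.9 to 553. Ccr7, which guides mature dendritic cells to lymph nodes, was high on every array, from 8241 to 14752. The mean log2 signal of the mature dendritic list was steady, from 10.96 to 11.42, whereas that of the B cell list ran from 5.44 to 7.46. The tissue names below stand only for what the labels say.

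Of the 10 receptors, 8 matched an entry of the RefSeq promoter table for GRCm38.p6, and Tlr4 and Tlr7 did not. The 250 bases before the start site are shown for the 4 receptors whose probe set lay above the filter on all 8 arrays, as the regulatory sequence in front of the genes that gave a signal in both tissues and genotypes. Each reads 5' to 3' on the gene's own strand, with the motif GAGGAA in capitals, the core letters bound by the myeloid factor PU.1. The motifs were chosen after the sequences had been seen. Tlr1 is taken from its more upstream start at chr5:64933559-64933808 on the minus strand, Tlr2 from chr3:83841609-83841858 on the minus strand, Tlr9 from chr9:106222348-106222597 on the plus strand and Tlr13 from chrX:106143025-106143274 on the plus strand.
Tlr1: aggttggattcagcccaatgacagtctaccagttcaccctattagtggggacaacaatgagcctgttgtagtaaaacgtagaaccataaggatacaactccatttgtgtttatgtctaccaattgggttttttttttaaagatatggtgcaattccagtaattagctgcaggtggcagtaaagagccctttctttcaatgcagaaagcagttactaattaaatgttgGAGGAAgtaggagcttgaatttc
Tlr2: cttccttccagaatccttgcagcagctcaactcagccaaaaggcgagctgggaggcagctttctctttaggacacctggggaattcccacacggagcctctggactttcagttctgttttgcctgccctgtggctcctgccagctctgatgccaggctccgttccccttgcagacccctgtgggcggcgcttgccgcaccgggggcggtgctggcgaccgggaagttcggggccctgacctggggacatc
Tlr9: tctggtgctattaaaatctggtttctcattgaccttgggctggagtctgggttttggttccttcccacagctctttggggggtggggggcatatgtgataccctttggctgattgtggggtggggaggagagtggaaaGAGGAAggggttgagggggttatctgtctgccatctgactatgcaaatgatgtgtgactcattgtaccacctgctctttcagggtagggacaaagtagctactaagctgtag
Tlr13: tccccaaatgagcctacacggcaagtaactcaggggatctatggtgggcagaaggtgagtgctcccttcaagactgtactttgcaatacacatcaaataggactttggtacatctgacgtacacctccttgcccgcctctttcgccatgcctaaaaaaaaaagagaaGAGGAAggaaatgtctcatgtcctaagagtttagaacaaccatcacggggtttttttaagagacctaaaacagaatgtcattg

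GAGGAA, searched on both strands, was present in the windows of Tlr1, Tlr9 and Tlr13, first at -23, -112 and -83 from the start, and its letters were not in the window of Tlr2. For Tlr1 this turned with the start chosen, since the window of its other start, chr5:64932700-64932949, held no GAGGAA and held TTCNNNGAA at -228. Of the receptors not shown, Tlr8, above the filter on no array, also held GAGGAA, at -77. The windows of Tlr3, Tlr5 and Tlr6 did not. Of all 32851 promoter windows of this length, 23.3% held GAGGAA. The letters TTCNNNGAA, a motif of STAT factors, and GAAANNGAA, a motif of interferon regulatory factors, were not in the 4 windows shown and were present in 7.02% and 7.13% of all windows. The window of Tlr8 held both, and a window of Tlr6 held GAAANNGAA. These matches describe the sequence and say nothing of binding in these samples. Spi1, which encodes PU.1, had signals from 366 to 696 over the 8 arrays.

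Among the receptors of the cell surface, Tlr4, which binds lipopolysaccharide together with Ly96, had the widest differences between genotypes. Its probe set 1418162_at measured 16.4, 2.23, 177, 126, 41.5, 0.705, 269 and 105. Every knockout array lay above every wild-type array, and the lowest knockout signal of 105 stood against a highest wild-type signal of 41.5. Knockout exceeded wild-type by 3.57 ± 0.77 log2 units in spleen (SE, limma adjusted p = 0.408), by 3.08 ± 0.77 in lymph node (adjusted p = 1.0) and by 3.32 ± 0.55 on average over the tissues (adjusted p = 0.291). None of these passed the threshold of 0.05, and the size depends on how low signals are treated, since the averaged difference was 2.12 with a floor at the 40th percentile and 4.67 without a floor. Tlr4 also passed the filter only through its knockout arrays, so among tested probe sets it had to differ.

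The other Tlr4 probe sets followed this pattern only in part. The signals of 1418163_at were 39.1, 3.51, 134, 117, 68.5, 7.19, 125 and 8.22, so the knockout arrays were higher in spleen, whereas in lymph node array A was high and array B low in both genotypes. Its difference was 2.69 ± 1.39 in spleen (SE, limma adjusted p = 0.688) and 0.43 ± 1.39 in lymph node (adjusted p = 1.0), and the latter became -1.42 without lymph node knockout array A and -0.98 without wild-type array B. 1442827_at and 1430695_at were under the filter and were not tested. Group means of 1442827_at were 19.9 ± 14.9 in spleen wild-type, 39.0 ± 28.1 in spleen knockout, 4.75 ± 6.02 in lymph node wild-type and 18.2 ± 2.64 in lymph node knockout (SD, n = 2 each). The probe sets of this gene thus disagreed on lymph node, where leaving out either of these arrays turned the sign for 1418163_at.

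Macrophages carry Tlr4, and the macrophage marker list moved with it. The mean log2 signal of its 11 genes was 6.79, 5.77, 9.55, 7.44, 7.41, 6.2, 9.38 and 8.11, higher on both knockout arrays than on both wild-type arrays in each tissue. All 11 genes had a positive averaged difference, with a median of 2.13 against -0.058 over all tested genes. In limma 0 passed the adjusted threshold, against 0.0113% of all tested probe sets, and 4 had an unadjusted p under 0.05, against 7.18%. These 4, Adgre1, Siglec1, Fcgr1 and Cd5l, passed the filter only through knockout arrays and so had to differ, as Tlr4 1418162_at did. Csf1r, the receptor for the macrophage growth factor, ranged from 1.16 on spleen wild-type array B to 5798 on spleen knockout array A. The part of these cells in the Tlr4 values was not tested. In a signal summed over all cells of a sample, fewer cells of a type and less RNA per cell cannot be told apart.

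**Figure D1:**
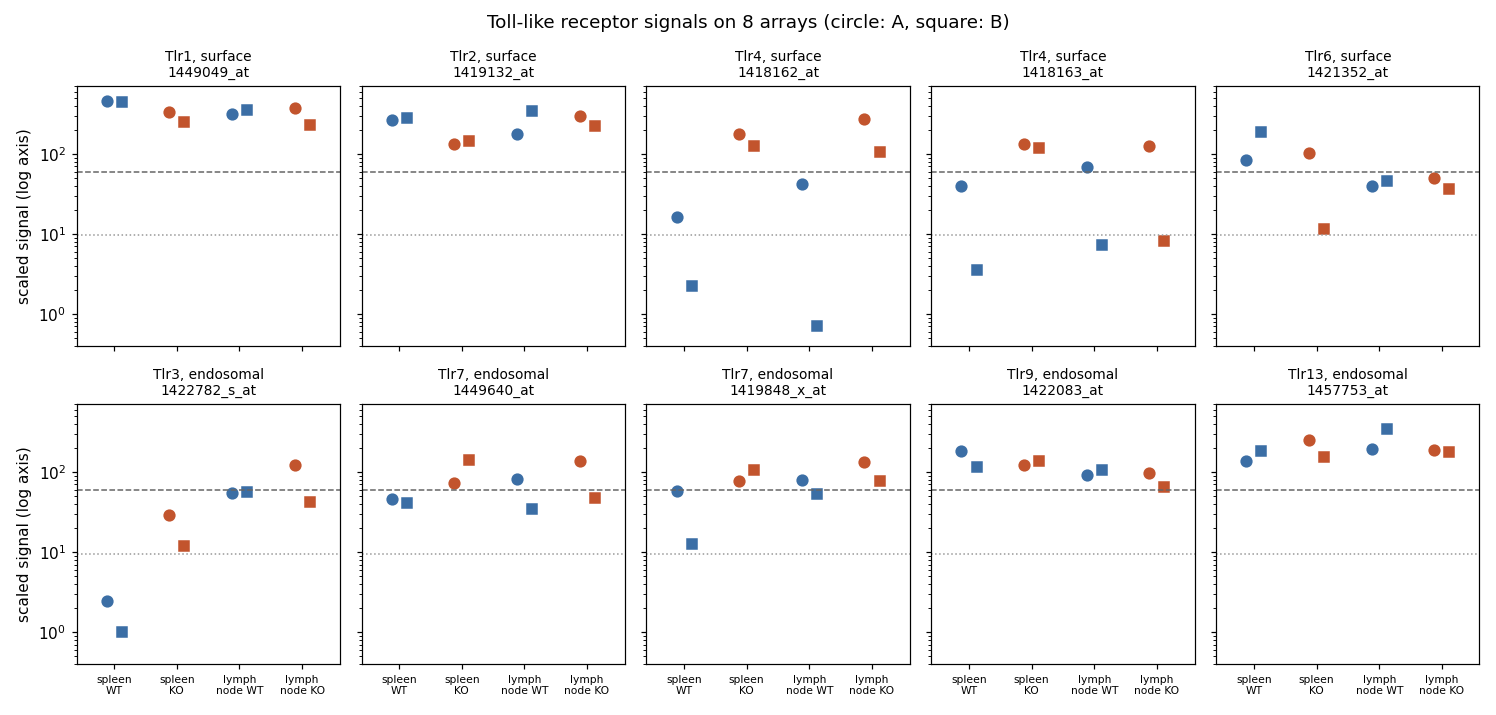
Scaled signals on a log axis for the 9 tested receptor probe sets and for Tlr3 1422782_s_at, with wild-type (WT) arrays in blue, knockout (KO) arrays in orange, circles for array A and squares for array B. The dashed line is the filter at 59.0 and the dotted line the floor at 9.58; Tlr4 1418162_at has all knockout arrays above all wild-type arrays, while Tlr1, Tlr2, Tlr9 and Tlr13 stay above the filter on every array.

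Tlr2 forms pairs with Tlr1 or Tlr6 that recognise bacterial lipoproteins. Tlr2 (1419132_at) measured 264, 280, 131, 143, 178, 347, 301 and 224. In spleen both knockout arrays lay near 137 and both wild-type arrays near 272, a difference of -0.99 ± 0.42 (SE, limma unadjusted p = 0.0483, adjusted p = 0.631), whereas in lymph node the genotypes overlapped, with a difference of 0.063 ± 0.42 (adjusted p = 1.0). The lymph node effect minus the spleen effect was 1.05 ± 0.59 (SE, limma adjusted p = 1.0), so the tissues were not shown to differ.

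Tlr1, the partner for triacylated lipoproteins, measured 456, 449, 330, 247, 314, 349, 377 and 230 (1449049_at). As with Tlr2, both spleen knockout arrays lay below both spleen wild-type arrays, and the lymph node genotypes overlapped. The differences were -0.66 ± 0.38 in spleen (SE, limma adjusted p = 0.726) and -0.17 ± 0.38 in lymph node (adjusted p = 1.0). The 95% interval in spleen, -0.66 ± 0.89, includes 0.

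Tlr6, the partner for diacylated lipoproteins, measured 84.1, 188, 101, 11.5, 40.2, 45.7, 49.9 and 36.2 (1421352_at). All 4 lymph node arrays were under the filter, and the genotypes overlapped in both tissues. The spleen difference of -1.89 ± 0.95 (SE, limma adjusted p = 0.676) rested on knockout array B, since it was -0.32 without that array and -3.46 without knockout array A. In lymph node the difference was -0.012 ± 0.95 (adjusted p = 1.0).

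Tlr5, the receptor for flagellin, had 1 probe set, 1450242_at, which was under the filter, with group means from 2.63 ± 0.259 to 7.83 ± 4.62 (SD, n = 2 each). All 4 means lay under the floor, so no order of the groups can be read from it. The same held for Tlr4 1430695_at in spleen, with means of 2.67 ± 0.212 and 3.87 ± 1.54 (SD, n = 2 each).

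Among the receptors of the endosome, Tlr7, which recognises uridine-rich RNA and is known from plasmacytoid dendritic cells and B cells, had 3 probe sets. 1449640_at measured 46.3, 40.7, 72.5, 142, 82.7, 34.3, 137 and 47.0, and 1419848_x_at measured 57.2, 12.6, 77.1, 107, 80.6, 53.1, 135 and 77.6. On both, the spleen knockout arrays lay above the spleen wild-type arrays, and the lymph node genotypes overlapped. The spleen differences were 1.23 ± 0.67 (SE, limma adjusted p = 0.710) and 1.76 ± 0.72 (unadjusted p = 0.0441, adjusted p = 0.628). In lymph node they were 0.59 ± 0.67 and 0.65 ± 0.72 (both adjusted p = 1.0), and the former became -0.18 without knockout array A and -0.046 without wild-type array B. The third, 1422010_at, was under the filter at 5.81, 3.57, 89.7, 5.42, 10, 3.55, 38.4 and 12.9, with only spleen knockout array A above 59.0.

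Markers of the cells that carry Tlr7 were read on the same spleen arrays. The 8 plasmacytoid dendritic genes had mean log2 signals of 8.25 and 7.93 on the wild-type arrays and 8.78 and 8.28 on the knockout arrays, with 4 of the 8 higher and 4 lower in knockout. The macrophage list stood at 6.79 and 5.77 against 9.55 and 7.44, higher on both knockout arrays, like the 2 tested Tlr7 probe sets. Between the knockout arrays, however, the macrophage and plasmacytoid lists were higher on A than on B, unlike those 2 probe sets. For the plasmacytoid list the knockout arrays were higher only by a narrow margin, 8.28 against 8.25. Median spleen differences were 0.059 for the plasmacytoid list and 2.50 for the macrophage list. The 9 B cell genes gave 6.24 and 6.16 against 7.46 and 5.75, high on knockout array A and low on B, as was Tlr7 1422010_at, whereas the 2 tested probe sets were higher on B than on A. The part of these cell types in the Tlr7 values was not tested.

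Tlr9, the receptor for unmethylated CpG DNA, measured 184, 114, 121, 139, 90.7, 107, 96.7 and 65.7 (1422083_at). It was the only member tested whose spleen arrays all lay above all lymph node arrays, by a narrow margin of 114 against 107. Spleen exceeded lymph node by 0.63 ± 0.28 (SE, limma unadjusted p = 0.0577, adjusted p = 0.538). The genotypes overlapped in both tissues, with differences of -0.16 ± 0.39 in spleen (limma adjusted p = 0.948) and -0.30 ± 0.39 in lymph node (adjusted p = 1.0).

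Tlr13, which recognises bacterial ribosomal RNA, measured 136, 182, 250.2, 152, 192, 344, 187 and 179.9 (1457753_at). Both lymph node knockout arrays lay below both wild-type arrays, and the spleen genotypes overlapped. The differences were -0.49 ± 0.44 in lymph node (SE, limma adjusted p = 1.0) and 0.31 ± 0.44 in spleen (adjusted p = 0.892). The lymph node value shrank to -0.069 without wild-type array B, the highest of the 8.

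Tlr3, which recognises RNA duplexes and signals through Ticam1, was under the filter on both probe sets and was not tested. 1422782_s_at measured 2.44, 0.992, 29.1, 12, 55.1, 56.2, 122 and 41.9. All spleen arrays lay below all lymph node arrays, at a floored mean difference of -2.24, and the spleen wild-type signals were under the floor. The other probe set, 1422781_at, had group means from 1.48 ± 1.46 to 4.46 ± 3.90 (SD, n = 2 each), all under the floor.

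Tlr8, a further endosomal RNA receptor next to Tlr7 on the X chromosome, measured 3.94, 1.69, 13.2, 3.13, 21.4, 0.887, 30.0 and 35.8 (1450267_at). No array reached the filter and 4 were under the floor, so it was not tested. In lymph node both knockout arrays lay above both wild-type arrays.

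Set against all probe sets, the receptors gave no calls. In limma, 0 of the 9 tested receptor probe sets reached an adjusted p under 0.05 in spleen, where 0.00755% of all tested probe sets did, in lymph node, where 0.0113% did, on average over the tissues, where 0.0113% did, in the difference between the tissues or between spleen and lymph node, where 0% did in both. At an unadjusted p under 0.05 there were 3 of 9 in spleen against 7.90% of all tested probe sets, namely Tlr4 1418162_at, Tlr2 and Tlr7 1419848_x_at. In lymph node there was 1 of 9, again Tlr4 1418162_at, against 2.94%, and on average over the tissues there were 2 of 9, Tlr4 1418162_at and Tlr7 1419848_x_at, against 7.18%. In the difference between the tissues and between spleen and lymph node there were 0 of 9, against 3.57% and 9.59%. The probe sets of 1 gene share their target and are not independent. These counts include Tlr4 1418162_at, which passed the filter only through its knockout arrays and so had to differ.

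Groups were also compared by whether their arrays overlapped. In spleen, knockout lay above wild-type for 4 of the 9, both Tlr4 and both Tlr7 probe sets, against 13.0% of all tested probe sets, and below it for 2, Tlr1 and Tlr2, against 23.5%. The 4 higher ones come from only 2 genes and are not independent, and all their spleen wild-type signals lay under the filter. In lymph node, knockout lay above wild-type for 1, Tlr4 1418162_at, against 14.0%, and below it for 1, Tlr13, against 15.7%. Knockout lay above wild-type within both tissues for 1 of the 9, Tlr4 1418162_at, against 2.90%. This probe set passed the filter only through its knockout arrays, so it had to differ. All spleen arrays lay above all lymph node arrays for 1, Tlr9, against 3.35%, and below them for none, against 1.90%. With 2 arrays in a group such separations are frequent, as these shares show.

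**Figure D2:**
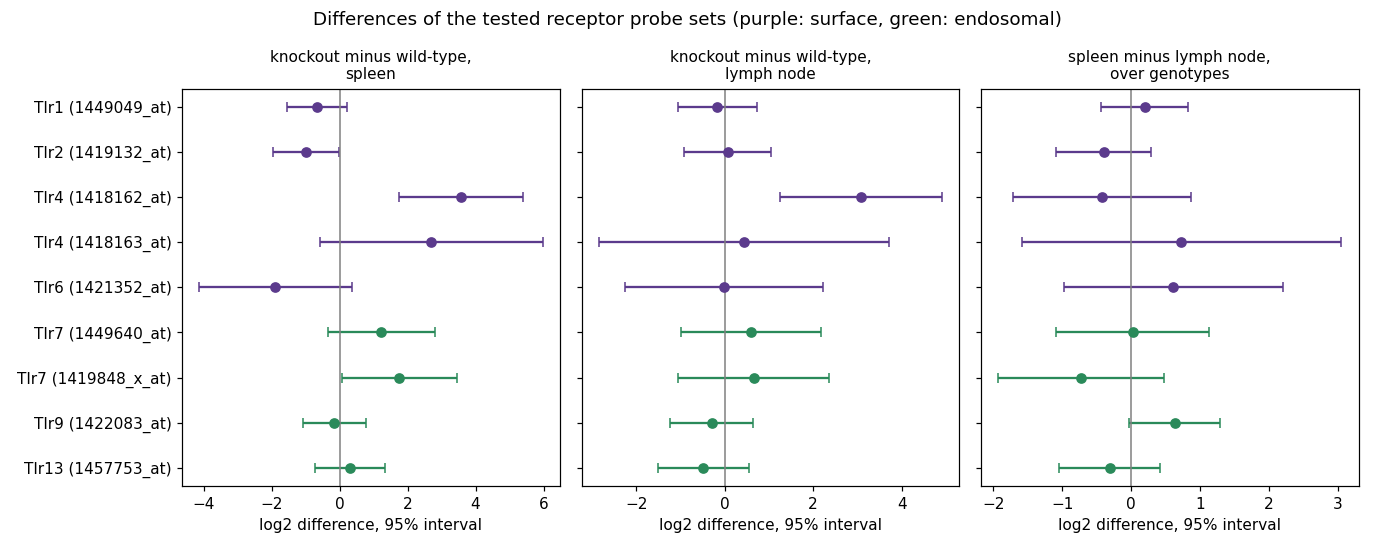
Log2 differences of the 9 tested receptor probe sets with 95% intervals from limma for the genotypes in spleen (left) and in lymph node (middle), as knockout minus wild-type, and for spleen minus lymph node over both genotypes (right), with surface receptors in purple and endosomal receptors in green. Tlr4 1418162_at stands at 3.57 in spleen and 3.08 in lymph node, and of the other intervals those of Tlr2 and Tlr7 1419848_x_at in spleen leave out 0; the intervals are not adjusted for the number of probe sets, and no adjusted p passed 0.05.

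Surface and endosomal receptors were compared over all their probe sets, whether or not they passed the filter. The median averaged difference of knockout minus wild-type was 0.028 for the 8 surface probe sets, with a range from -0.95 to 3.32, and 0.69 for the 8 endosomal ones, with a range from -0.23 to 1.40, beside -0.031 over all probe sets. The 2 ranges overlap over the whole of the endosomal one. Probe sets of 1 gene count separately in these medians, which gives Tlr4 and Tlr7 more weight. The endosomal values were 0.91, 1.20 and 1.40 for Tlr7, and 0.66, 0.00 and 0.71 for the untested Tlr3 and Tlr8. They were -0.23 for Tlr9 and -0.087 for Tlr13, which lay above the filter on every array. The endosomal median was 0.098 without both knockout arrays A and 0.095 with a floor at the 40th percentile and so rested on arrays A and on low signals. For spleen minus lymph node the medians were 0.068 and -0.15, beside 0.020. No test was made of these medians.

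Of the genes that bring receptors or ligands into place, 11 of 12 listed were measured and 10 tested. On average over the tissues 7 were higher and 3 lower in knockout, and 0 were called by the limma test, against 0.0113% of all tested probe sets, with 2 at an unadjusted p under 0.05, both higher, against 7.18%. These were Cd36, a co-receptor of Tlr2 with Tlr6, at 64.1, 121, 224, 241, 4.76, 36.2, 103 and 109, with an averaged difference of 1.95 ± 0.46 (SE, limma adjusted p = 0.432), and Cd14, which hands lipopolysaccharide to Tlr4, at 37.9, 17.6, 34.6, 51.2, 19.8, 41.6, 141 and 98.9, with 1.37 ± 0.39 (adjusted p = 0.528). Cd14 passed the filter only through the lymph node knockout arrays and so had to differ there. Ly96, the part of the Tlr4 complex that binds lipopolysaccharide, measured 958, 1131, 706, 842, 684, 1439.6, 488 and 1459, with overlapping lymph node genotypes and both spleen knockout arrays below both wild-type arrays, so it did not run parallel to Tlr4.

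Unc93b1, the chaperone of the endosomal receptors, measured 166, 141, 68.4, 58.6, 6.57, 29.4, 75.6 and 11.9. Spleen exceeded lymph node by 2.13 ± 0.63 (SE, limma unadjusted p = 0.0114, adjusted p = 0.380). Within spleen both knockout arrays lay below both wild-type arrays. Of the 8 endosomal receptor probe sets, 3 were higher and 4 lower in spleen than in lymph node. Cd180, a Toll-like relative on B cells that pairs with Ly86, measured 53.0, 133, 733, 239.8, 192, 138, 304 and 111, and its spleen difference was 2.32 ± 0.75 (limma adjusted p = 0.550).

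Of the adaptors and kinases downstream, 16 of 20 were measured and all 16 tested, with 9 higher and 7 lower in knockout on average and 0 called or at an unadjusted p under 0.05, against 0.0113% and 7.18% of all tested probe sets. Their median averaged difference was 0.11. Myd88, the adaptor used by all these receptors except Tlr3, was low, at 3.28, 46.9, 160.3, 116, 3.63, 42.1, 78.9 and 3.05, with 3 arrays under the floor. It passed the filter only through knockout arrays. In spleen both knockout arrays were higher, by 2.69 ± 1.21 with the wild-type array A raised to the floor (SE, limma adjusted p = 0.649), and in lymph node the genotypes overlapped. Btk, a kinase that also acts in B cell receptor signalling, differed by 1.27 ± 0.47 in spleen (limma adjusted p = 0.60).

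Of 12 inhibitors, all were measured and 11 tested, with 4 higher and 7 lower in knockout on average, 0 called and 1 in each direction at an unadjusted p under 0.05, against 7.18% of all tested probe sets. The lower one was Sigirr, an inhibitory member of the receptor family, at 188, 161, 117, 37.8, 158, 148, 138 and 59.8 and an averaged difference of -1.07 ± 0.44 (SE, limma adjusted p = 0.690). Its knockout arrays lay below the wild-type arrays in each tissue. The higher one was Inpp5d, a lipid phosphatase, at 0.59 ± 0.24 (limma adjusted p = 0.690). Sarm1, which restrains Ticam1 signalling, measured 124 and 84.4 on the lymph node wild-type arrays and from 5.25 to 41.4 on the other 6, of which 4 were under the floor. It passed the filter only through those 2 lymph node wild-type arrays, so no difference is given.

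Of 15 transcription factors, 14 were measured and tested, with 4 higher and 10 lower in knockout on average and 0 called, with 1 in each direction at an unadjusted p under 0.05, against the same 7.18%. Irf7, which drives type I interferon downstream of Tlr7 and Tlr9, measured 6.43, 28.8, 118, 66.6, 67.4, 37.6, 172 and 102. Its knockout arrays lay above the wild-type arrays in each tissue, at an averaged difference of 1.91 ± 0.45 (SE, limma adjusted p = 0.452). Atf3, a repressor induced by Toll-like receptor signals, was the lower one at -0.66 ± 0.27 (limma adjusted p = 0.686), with the spleen knockout arrays at 3366 and 3824 against 6065 and 6611 on the wild-type arrays.

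Of 20 target genes, all were measured and 16 tested, with 12 higher and 4 lower in knockout on average and 0 called, with 3 higher and 0 lower at an unadjusted p under 0.05, again beside 7.18%. Il10, an anti-inflammatory cytokine, measured 30.7, 40.3, 199, 135, 40, 20.8, 122 and 153. It passed the filter only through its 4 knockout arrays and so had to differ, and the averaged difference was 2.23 ± 0.31 (SE, limma adjusted p = 0.189). Ccl3, a chemokine of macrophages, measured 16.5, 35.3, 335, 61.2, 116, 63.4, 382 and 349, with an averaged difference of 2.33 ± 0.57 (limma adjusted p = 0.455). Cd86, a costimulatory ligand, differed by 1.41 ± 0.51 (limma adjusted p = 0.639), and 2398 on spleen knockout array A was far from the 456 on array B. The macrophage list given above was also higher on these knockout arrays, and its part in these values was not tested.

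Between the tissues, the target genes lay lower in spleen, with 2 of the 16 tested higher and 14 lower and a median over all 20 of -0.67 beside 0.039 over all genes. None was called, and 6, all lower in spleen, were at an unadjusted p under 0.05, against 9.59% of all tested probe sets. Il12b, a subunit of a cytokine made by activated dendritic cells, measured 42.3, 90.1, 218, 58.0, 537, 854, 178 and 859, and spleen minus lymph node was -2.63 ± 0.65 (SE, limma adjusted p = 0.335). Cd80 measured from 232 to 1168 in spleen and from 1006 to 1416 in lymph node, at -1.45 ± 0.38 (limma adjusted p = 0.344). The receptors themselves showed no such common direction, with 4 of 8 surface probe sets lower in spleen and 4 of 8 endosomal ones.

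**Figure D3:**
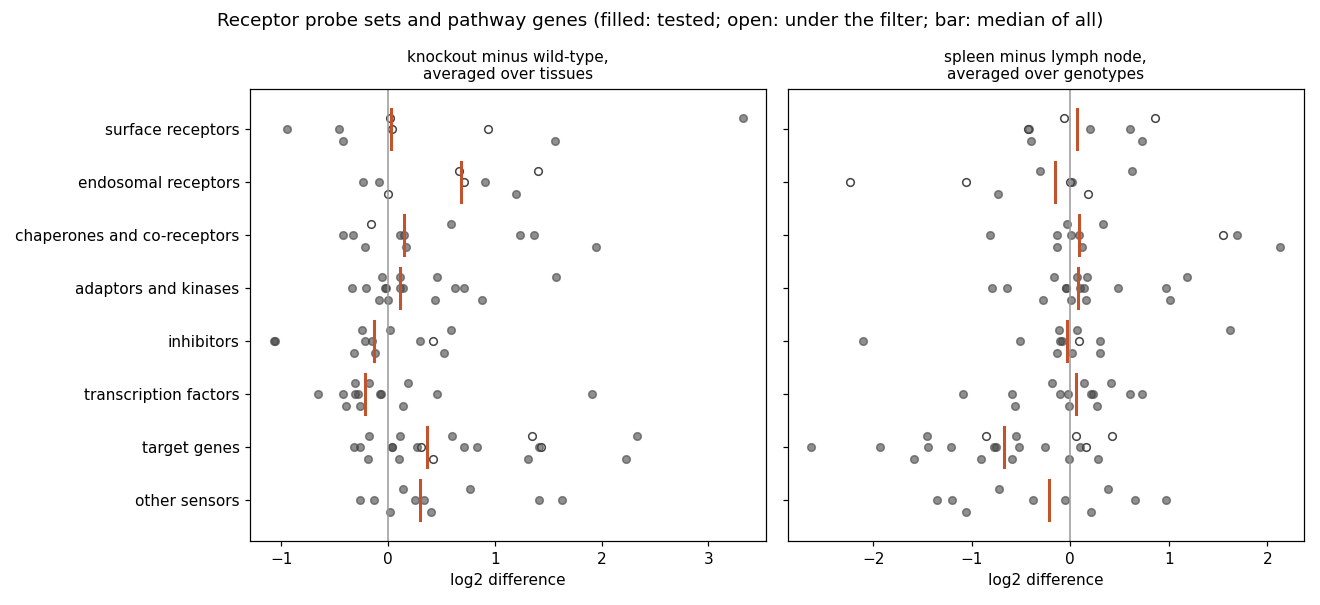
Log2 differences of all receptor probe sets and of the measured genes of each pathway list, averaged over tissues (left) or over genotypes (right), with tested ones filled, those under the filter open, and a bar at the median of all. Bars for knockout minus wild-type lie between -0.22 and 0.69, and for spleen minus lymph node the target genes have the lowest bar, at -0.67.

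Of 12 other microbial sensors, 10 were measured and tested, with 8 higher and 2 lower in knockout on average and 0 called. Zbp1, a sensor of Z-form nucleic acids that interferon induces, measured 77.0, 98.4, 396, 309, 235, 285, 664 and 576. Its knockout arrays lay above the wild-type arrays in each tissue, at an averaged difference of 1.63 ± 0.24 (SE, limma adjusted p = 0.221), the only one of the 10 at an unadjusted p under 0.05, against 7.18% of all tested probe sets. Tlr12, a mouse endosomal receptor that belongs to the family but not to the 10 genes described, measured 646, 879, 612, 925, 347, 416, 438 and 343 on 1438329_at. All its spleen arrays lay above all its lymph node arrays, as for Tlr9, at a difference of 0.97 ± 0.27 (limma unadjusted p = 0.00864, adjusted p = 0.357). Its second probe set, 1437931_at, ranged from 34.0 to 62.7 and did not show this, at a difference of -0.25 ± 0.31 (SE, limma adjusted p = 0.858).

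**Figure D4:**
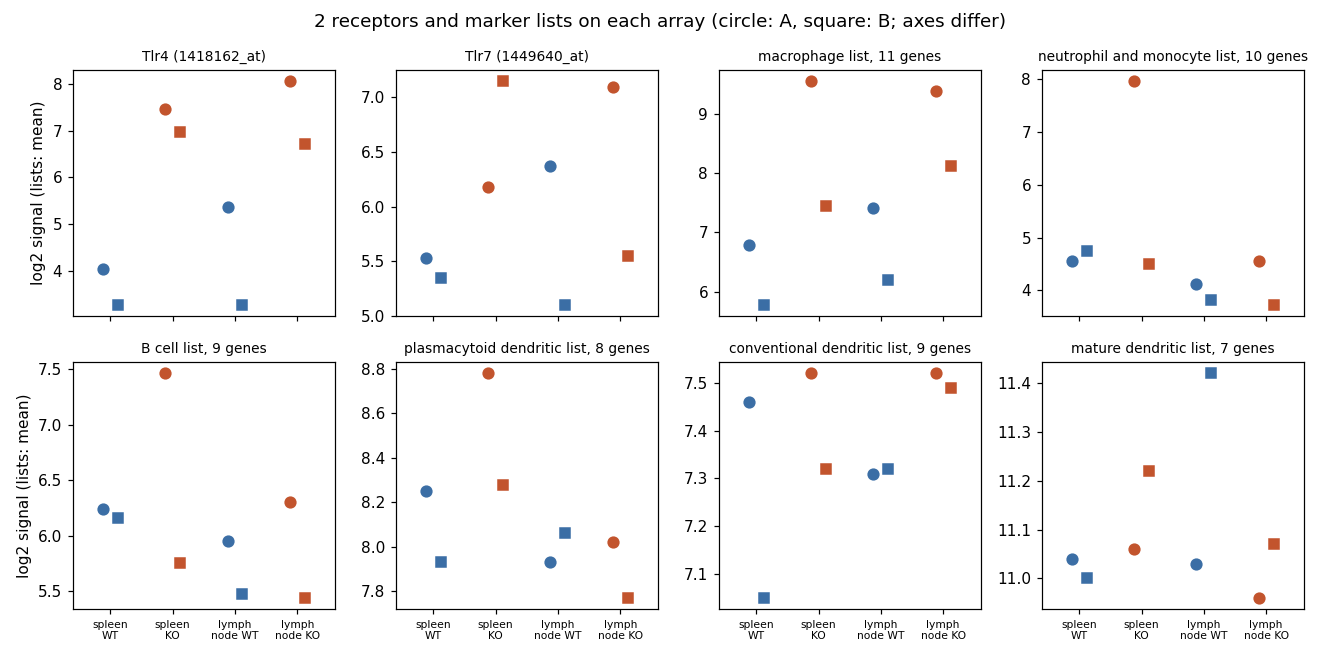
Log2 signals of Tlr4 1418162_at and Tlr7 1449640_at after the floor, and mean log2 signals of marker lists, on each array, with wild-type in blue, knockout in orange, circles for array A and squares for array B; the vertical axes differ between panels. Tlr4 and the macrophage list have both knockout arrays above both wild-type arrays in each tissue, and the neutrophil and monocyte list stands at 7.97 on spleen knockout array A and between 3.72 and 4.75 on the other 7.

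The genes most like each receptor were sought by Pearson's r of log2 signals over the 8 arrays among 10982 genes, as a description, since with so few arrays in shared groups high values arise for many genes. For Tlr4 1418162_at they were E2f1 (r = 0.985), Wfdc17 (0.981) and Inpp5d (0.980), the last being the phosphatase among the inhibitors above. For Tlr2 they were Polg2 (0.975), Vps26c (0.952) and Irak1 (0.950), the last a kinase of the same pathway. For Tlr1 they were Ing1, Frmd5 and Erbb2, for Tlr6 Tomm22, Aopep and Tmem234, and for Tlr7 1449640_at Dip2c, Cplx2 and Pdxp, at 0.920 or above. For Tlr9 they were Clip3, Nmnat2 and Gtf2f2 and for Tlr13 Taf15, Fmc1 and Chtf8, at 0.938 or above. Toll-like receptor genes were left out of this search, so none could appear among the 3.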

How the data were processed

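RNA from 8 samples was measured on Affymetrix arrays. The deposited values are intensity values, 1 linear signal per probe set, from MAS5 per the submitters' processing notes (MAS5 version and settings: not given in the sources used here). For every array the trimmed mean of the deposited values was 250, so the authors' values were already scaled per array.

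Of 45101 probe sets, 64 controls were left out. Array medians spread over 0.279 log2 units, above the tolerance of 0.2, so arrays were shifted to a common median, floored, taken to log2 and filtered as described. In R 4.3.3, limma 3.58.1 fitted a mean for each of the 4 groups to all 8 arrays (4 residual degrees of freedom, 3.05 from the prior), with 5 contrasts and Benjamini-Hochberg adjustment. The script was tested on simulated data. Gene names came from the platform annotation; 34945 probe sets had 1 symbol, 932 several and 9160 none. In pathway and marker lists a gene was represented by its probe set of highest mean signal.

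The named genes were every receptor probe set, Aire, up to 4 members of each list with the smallest unadjusted p per contrast, and for each receptor the 3 genes most like it; Ly96, Ccr7, Cd79b, Ms4a1, Csf1r, the other macrophage genes, Spi1 and the second Tlr12 probe set were added after their values were seen. The members and lists were chosen with earlier results of these data known. With 2 arrays per group, precision is limited by their number. Alternatives covered scaling, floor, filter, probe set choice, prior, the letters, Y-linked signal and each array left out.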

Additional observations from a re-analysis of the deposited data

How the results depend on the processing

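Across 19 alternatives and 36 receptor differences no receptor probe set reached an adjusted p under 0.05, and the lowest was 0.118, for Tlr4 1418162_at averaged over tissues with the letter as a replicate block. Of 652 alternative values 29 turned sign, in 12 of the 36 differences, none of them called; the cause was not tested. Leaving out each array in turn gave ranges of -0.50 to 0.18 for Tlr9 in spleen, -0.046 to 0.67 for Tlr13 in spleen, and in lymph node -1.42 to 2.29 for Tlr4 1418163_at, -0.42 to 0.54 for Tlr2, -0.24 to 0.22 for Tlr6, -0.53 to 0.19 for Tlr1 and -0.18 to 1.36 for Tlr7 1449640_at. The ranges were -0.30 to 0.12 for Tlr13 averaged over tissues, and between tissues -0.95 to 0.11 for Tlr4 1418162_at, -0.20 to 1.65 for Tlr4 1418163_at, -0.17 to 1.40 for Tlr6 and -0.36 to 0.41 for Tlr7 1449640_at. Without both knockout arrays A, an alternative chosen after seeing the data, Tlr13 in spleen was -0.046, Tlr4 1418163_at in lymph node -1.41, Tlr2 in lymph node -0.15, Tlr7 1449640_at in lymph node -0.18 and Tlr6 between tissues -0.055. Tlr2 in lymph node was -0.11 with Y-linked signal as a covariate. Without the median shift Tlr6 in lymph node was 0.027 and Tlr7 1449640_at between tissues -0.074.

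Counts over all probe sets were few and moved with the settings. Called in spleen were 2, with 4 under a stricter filter, 4 with a trended robust prior, 0 with 1 probe set per gene and 0 without both knockout arrays A. In lymph node there were 3, with 0 for 1 probe set per gene, 0 without both knockout arrays A and 1 to 3 with single arrays left out, 1 without either knockout array. Averaged over tissues there were 3, with 5 without a floor, 5 with a floor at the 40th percentile, 5 under the stricter filter, 0 for 1 probe set per gene, 11 with the trended robust prior and 2 to 7 with single arrays left out, 7 without spleen knockout array B. Between tissues there were 0, with 65 under the trended robust prior and 0 to 2 with single arrays left out, 2 without spleen wild-type array B. With the letter as a replicate block the counts stayed at 2, 3 and 3; the deviations of same-lettered arrays correlated at 0.05 to 0.29 between groups. Low signals limit Tlr3, Tlr5 and Tlr8, which lay mostly near or under the floor.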
